A study of Mus musculus with 12 samples.

Results

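The genes described here are Myc with its partner and antagonists, and genes whose products build ribosomes in the nucleolus. They were chosen by name as a list of 50 genes, and all 50 were found among the 54532 genes of the expression files. By role the list holds 5 genes of the Myc network, 5 abundant nucleolar proteins, 8 proteins of the small nucleolar ribonucleoproteins, 10 factors of the small ribosomal subunit, 13 factors of the large subunit, 6 genes of RNA polymerase I transcription and 3 enzymes of polyamine and pyrimidine synthesis. Of the 50 genes, 49 had a mean of at least 1 FPKM over the 12 libraries and were tested together with all other such genes, 11550 in all. FPKM is the number of reads scaled by gene length and library size.

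The libraries are RNA sequencing of primary CD8+ T cells from wild-type mice, which had been activated and then transfected with small interfering RNA. The question of the design is whether trans-vaccenic acid (TVA), a trans fatty acid of milk and ruminant meat, acts on these cells through the transcription factor Creb1. A non-targeting RNA (siNTC) was used in 6 libraries and an RNA against Creb1 (siCreb1) in the other 6. Within each, 3 libraries came from cells given 20 µM TVA and 3 from cells given only the solvent DMSO, all for 24 h. The 4 groups are called siNTC, siNTC plus TVA, siCreb1 and siCreb1 plus TVA, and every group holds activated, transfected wild-type cells. The labels do not say whether the 3 libraries of a group came from separate cultures or animals, so p-values measure the spread between these samples, which may be technical.

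Creb1, the gene the knockdown targets, was 11.0, 10.3 and 10.5 FPKM in siNTC and 11.03, 11.97 and 12.42 FPKM in siNTC plus TVA. In siCreb1 it was 1.19, 1.29 and 1.77 FPKM, and in siCreb1 plus TVA 1.81, 1.67 and 1.17 FPKM. The 6 libraries with siCreb1 all lay far below the 6 with siNTC (two-sided exact permutation test, p = 0.00216), with a log2 fold change of −2.27 without TVA and −2.34 with TVA. These are on the scale of log2(FPKM + 1), which understates changes at low levels. With 0.1 in place of 1 they were −2.84 and −2.87, and by limma-voom −2.9 and −2.92.

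The markers of CD8+ T cells (Cd3d, Cd3e, Cd3g, Cd8a, Cd8b1, Cd2 and Lck) were all among the tested genes, led by Cd8b1 at a mean of 887 FPKM. Their summed level was 2295, 2303 and 2296 FPKM in siNTC, 2286, 2274 and 2273 in siNTC plus TVA, 2159, 2173 and 2156 in siCreb1, and 2176, 2174 and 2190 in siCreb1 plus TVA, so every siCreb1 library lay below every siNTC library. The sums did not overlap in the TVA comparisons either. They were lower with TVA in siNTC cells and higher with TVA in siCreb1 cells. By limma 0 of the 7 genes were called with TVA in siNTC cells, against 7.38% of all tested genes. In siCreb1 cells it was also 0, against 0.537%. Without TVA 1 of these 7 genes was higher in siCreb1 (Cd8a), against 6.52% of all tested genes. The lower ones were 4 (Cd3d, Cd3g, Cd8b1 and Lck), against 7.21% of all tested genes. With TVA 1 was higher (Cd8a), against 4.64%, and 2 were lower (Cd3d and Cd8b1), against 5.51%. Other cell types gave little signal. The 2 markers of CD4 T cells summed to between 3.34 and 4.67 FPKM, the 5 of B cells, led by Cd79b, to between 9.48 and 14.3, and the 4 of natural killer cells, led by Klrb1c, to between 5.62 and 7.64. None of the 4 erythroid or 4 fibroblast markers was tested, and Hbb-bs and Dcn were 0 in every library. The 6 myeloid markers summed to 7.20, 6.18 and 6.43 FPKM in siNTC, 6.39, 5.98 and 4.93 in siNTC plus TVA, 6.37, 6.63 and 4.95 in siCreb1, and 8.88, 7.73 and 8.01 in siCreb1 plus TVA. Nearly all of that sum was Lyz2, at a mean of 6.19 FPKM, while Csf1r, Itgam, Adgre1, Cd14 and Fcgr1 stayed under 0.39 FPKM in every library.

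Whole reads could be recovered from the FPKM values, and they gave between 16660234 and 24602484 reads per library, with a median of 20759165. The groups differed in depth. The medians were 20236123 reads in siNTC, 18439724 in siNTC plus TVA, 21995620 in siCreb1 and 23616471 in siCreb1 plus TVA, and every siCreb1 library was deeper than every siNTC library, so depth does not overlap between the groups of either knockdown comparison (20758033 reads at most in siNTC and 20760297 at least in siCreb1). At this depth each tested gene of the list was counted with 429 to 25281 reads per library. In bulk RNA fewer cells of a type and less RNA per cell cannot be told apart. Among the 49 genes siNTC replicate 1 stood furthest from its group. Its root mean square deviation from the other libraries of its group was 0.114 on the log2 scale, against 0.0588 to 0.0932 in the other 11 libraries. The deviation went with gene length, with a median of −0.18 in the 5 tested list genes shorter than 2000 bases and 0.03 in the other 44. Over all tested genes it was smaller, −0.04 in the 2946 shorter ones and 0.01 in the other 8604. Calls on list genes that change when this library is left out are given with each comparison.

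Myc is a transcription factor that binds DNA as a pair with Max, mainly at E-box sequences, and Mxd1, Mxd4 and Mnt are repressors that pair with the same Max. In activated CD8+ T cells Myc rises early and drives cell growth, and among its best known targets are the genes for ribosome production. RNA polymerase I transcribes the precursor of the ribosomal RNAs, small nucleolar ribonucleoproteins modify it, and separate sets of assembly factors turn it into the small and the large subunit.

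All 7 roles were well expressed. Npm1 (nucleophosmin), a chaperone of the nucleolus, had the highest level at a mean of 381 FPKM, and Mxd1 the lowest of the tested genes at 3.70 FPKM. Myc had a mean of 96.1 FPKM, Noc2l, the highest of the large-subunit factors, 52.4 FPKM, Wdr43, the highest of the small-subunit factors, 43.0 FPKM, and Ubtf, the highest of the polymerase I group, 41.6 FPKM. The median over the 49 genes was 20.2 FPKM. Levels varied little from library to library: the coefficient of variation over all 12 ran from 1.94% for Ubtf, the factor that opens ribosomal DNA for polymerase I, to 10.1% for Gnl3 (nucleostemin), with a median of 5.32%. Over the 8961 tested genes with a mean of at least 3 FPKM the median was 6.65%, and these genes were not matched to the list in level. Wdr74, a large-subunit factor, was the gene left out of the tests. It is listed at 0 in 10 libraries and at 0.0494 and 0.0809 FPKM in siNTC plus TVA replicates 2 and 3. Its gene model overlaps Gm45736 on the same strand and was near 0 as well, so its level is uncertain.

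**Figure D1:**
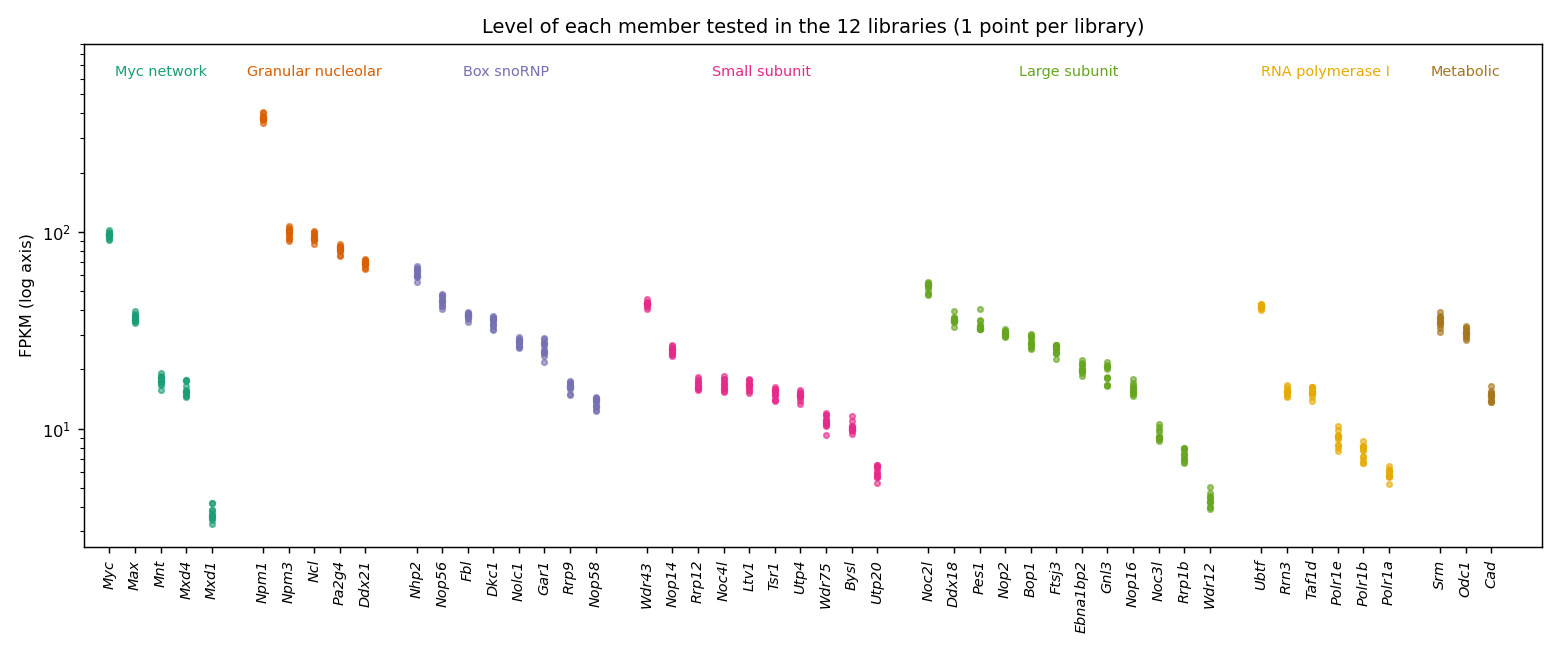
Level of each tested gene of the list in FPKM on a log axis, by role. Each point is 1 library, and gene means run from 3.70 FPKM for Mxd1 to 381 FPKM for Npm1.

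Together the list took 0.665 ± 0.0126% (SD, n = 3) of the reads in siNTC, 0.671 ± 0.00494% in siNTC plus TVA, 0.695 ± 0.00429% in siCreb1 and 0.68 ± 0.00467% in siCreb1 plus TVA. The lowest siCreb1 library, at 0.69%, was above the highest library of any other group, at 0.685% in siCreb1 plus TVA.

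Because the list is built around Myc and the knockdown lowers Creb1, the promoters were searched for the core letters each factor is known to bind. RefSeq promoter windows of GRCm38.p6, from 250 bases before to 50 after the start site, were at hand for 44 of the 50 genes (53 windows), and were missing for Myc, Npm1, Fbl, Rrp12, Bop1 and Srm. The E-box CACGTG, which reads the same on both strands, was in 11 of the 53 windows (20.8%), against 7.15% of all 32851 promoter windows and 10.5% of the 10104 windows of tested genes. The genes were Max, Mxd4, Mnt, Ltv1, Nop2, Pes1, Rrn3, Tsr1, Utp20, Utp4 and Wdr43. The cyclic AMP response element TGACGTCA, also the same on both strands and without overlap with CACGTG, was in 1 window (1.89%), that of Noc4l, against 1.79% of all windows and 3.25% of those of tested genes. A match describes the letters of a window and does not show binding. The E-boxes of the 3 Myc network genes and the element of Noc4l are printed 5′ to 3′ with 10 bases on each side, the matched letters in capitals:
Mxd4, chr5:34187914-34187939, minus strand: gctgggccacCACGTGctgttgctaa
Max, chr12:76962236-76962261, minus strand: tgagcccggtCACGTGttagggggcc
Mnt, chr11:74830791-74830816, plus strand: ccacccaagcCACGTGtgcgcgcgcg
Noc4l, chr5:110653397-110653424, minus strand: gaggctcgggTGACGTCAcgggcgcgac
The match lies at −219 from the start site in Mxd4, −3 in Max, −123 in Mnt and −32 in Noc4l.

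TVA in siNTC cells was the first comparison. It asks how the fatty acid alone moved the list. Myc itself did not pass the test, Mxd4 and Noc2l fell, and Dkc1 rose. These 3 of the 49 genes (6.12%) stand beside 7.38% of all 11550 tested genes that passed in this comparison (519 or 4.49% higher and 333 or 2.88% lower, and 402 and 154 after rescaling to TPM, which gives all libraries the same sum). A call here is an adjusted p under 0.05 from limma after the Benjamini-Hochberg correction over all tested genes, and fold changes are on the scale of log2(FPKM + 1). Overlap of groups, given for single genes below, describes the libraries and is no test. The share of all tested genes without overlap is not given. At an unadjusted p under 0.05 there were 11 genes, against 20.9% of all tested genes. Without siCreb1 replicate 1 the large-subunit factor Bop1 was called lower (adjusted p = 0.0191, with up to 0.251 under other alternatives). The median log2 fold change of the 49 genes was −0.01, the same as over all tested genes to 2 decimals, with 20 genes above 0 and 29 below, and limma-voom on the recovered reads gave 25 above and 24 below. The summed CD8 markers did not overlap between siNTC and siNTC plus TVA, with means of 2298 and 2278 FPKM. Of the 7 markers 0 were called here, and their part in the calls was not tested.

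Myc (ENSMUSG00000022346, chr15:61985391-61990374 of GRCm38) was 93.7, 102 and 96.4 FPKM in siNTC and 95.7, 91.6 and 91.3 FPKM in siNTC plus TVA. The groups overlap, since the lowest siNTC library lies below the highest TVA library. The log2 fold change was −0.07 (95% interval −0.14 to 0.00, adjusted p = 0.27). Max (ENSMUSG00000059436, chr12:76937269-76962201), the partner without which Myc does not bind DNA, was 35.0, 39.4 and 38.2 FPKM in siNTC and 37.8, 37.5 and 36.2 FPKM in siNTC plus TVA. These also overlap, and the log2 fold change was −0.01 (adjusted p = 0.909).

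Mxd4 (ENSMUSG00000037235, chr5:34173883-34187720), the repressor with the E-box shown above, was 17.6, 17.5 and 17.6 FPKM in siNTC and 15.4, 14.5 and 15.3 FPKM in siNTC plus TVA. Every TVA library was lower than every siNTC library, whose values nearly coincide. Its mean changed by −14.3% (log2 fold change −0.21, SE 0.0398, adjusted p = 0.00912), and the call was kept under all 21 alternative settings. All 5 genes of the Myc network had log2 fold changes below 0, from −0.21 for Mxd4 to −0.01 for Max; by limma-voom 1 of the 5 was above 0. Mxd4 was the only 1 of them to pass.

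Among the nucleolar proteins Pa2g4 (ENSMUSG00000025364, chr10:128557766-128565987), also called Ebp1, came closest to a call. It was 79.5, 75.5 and 76.4 FPKM in siNTC and 81.9, 82.5 and 86.4 FPKM in siNTC plus TVA, so the groups do not overlap. Its log2 fold change of 0.12 had an adjusted p of 0.0524, and it passed without siNTC replicate 1 (0.0387), among genes with a mean of at least 5 FPKM (0.0419) and by limma-voom (0.0118), over a range of 0.0118 to 0.192 under all alternatives of Pa2g4. The log2 fold changes of the other 4, Ncl (nucleolin), Npm1, Npm3 and the helicase Ddx21, were between 0.00 and 0.08.

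Dkc1 (ENSMUSG00000031403, chrX:75095854-75109777) encodes dyskerin, the enzyme of the box H/ACA particles that turns uridine into pseudouridine. It was 33.3, 31.9 and 31.9 FPKM in siNTC and 37.4, 36.2 and 36.6 FPKM in siNTC plus TVA. All TVA libraries were above all siNTC libraries, with a rise of 13.5% in the mean (log2 fold change 0.18, SE 0.0362, adjusted p = 0.0137). The adjusted p was 0.0506 without siNTC replicate 2 and 0.0501 without siNTC plus TVA replicate 1, and under the other alternatives it was as low as 0.00154. Nop58 (ENSMUSG00000026020, chr1:59684971-59719044) and Nop56 (ENSMUSG00000027405, chr2:130274430-130279313) form the core of the box C/D particles with the methyltransferase Fbl. Nop58 was 12.9, 12.4 and 12.3 FPKM in siNTC and 13.89, 14.44 and 13.03 FPKM in siNTC plus TVA. Nop56 was 42.2, 40.7 and 41.8 FPKM in siNTC and 44.2, 43.7 and 43.7 FPKM in siNTC plus TVA. For both genes the TVA libraries were the higher ones without overlap, at log2 fold changes of 0.13 (adjusted p = 0.109) and 0.08 (adjusted p = 0.156), and limma-voom called Nop58 (0.0265, with up to 0.297 under other alternatives).

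Noc2l (ENSMUSG00000095567, chr4:156236010-156247616) takes part in assembly and export of the large subunit. It was 52.7, 53.5 and 51.1 FPKM in siNTC and 48.8, 47.8 and 48.4 FPKM in siNTC plus TVA, again without overlap. The mean changed by −7.89% (log2 fold change −0.12, SE 0.0227, adjusted p = 0.0109); the adjusted p was 0.0794 after rescaling to TPM, 0.0581 by limma-voom and 0.0999 in a fit of only the 6 libraries compared, the highest of a range that starts at 0.00795. Of the 12 tested large-subunit genes 10 were below 0 (9 by limma-voom), with a median of −0.08, and Noc2l was the only call. The 10 small-subunit factors gave no call by limma, with 1 at an unadjusted p under 0.05 and 0 calls by limma-voom. Wdr43, the most abundant of them, was 41.5, 45.3 and 43.0 FPKM in siNTC and 43.6, 43.8 and 40.5 FPKM in siNTC plus TVA, with partial overlap and a log2 fold change of −0.02 (adjusted p = 0.803).

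Polr1b (ENSMUSG00000027395, chr2:129100995-129126594), the second largest subunit of RNA polymerase I, was 7.78, 7.25 and 7.18 FPKM in siNTC and 6.67, 6.96 and 6.66 FPKM in siNTC plus TVA. The TVA libraries were the lower ones without overlap, but the log2 fold change of −0.11 did not pass (adjusted p = 0.133). Ubtf, Taf1d, Rrn3, Polr1a and Polr1e had log2 fold changes between −0.05 and 0.06. Srm, which makes spermidine, was 32.4, 39.2 and 34.5 FPKM in siNTC and 35.0, 31.1 and 36.1 FPKM in siNTC plus TVA, with broad overlap (log2 fold change −0.05, adjusted p = 0.75). Odc1, the first enzyme of polyamine synthesis, and Cad, which starts pyrimidine synthesis, had log2 fold changes of 0.02 and −0.02. For 48 of the 49 genes the 95% interval of the log2 fold change lay within a 1.2-fold change in either direction, the exception being Mxd4.

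**Figure D2:**
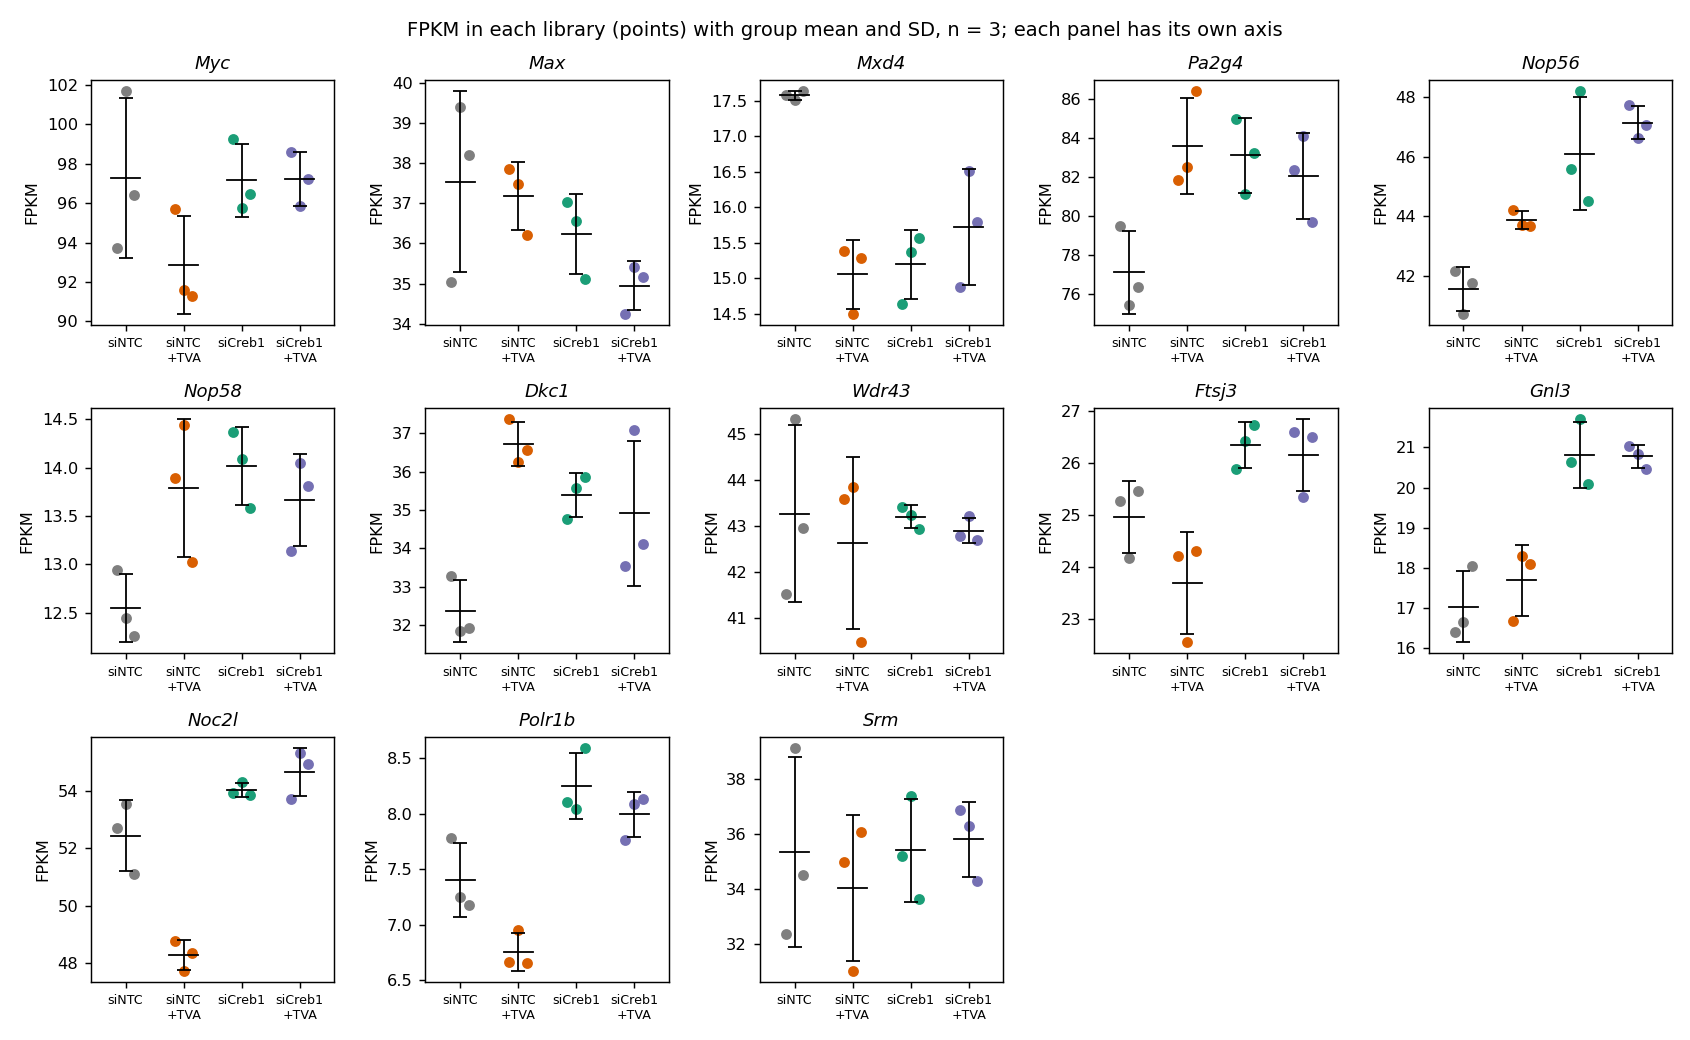
FPKM of 13 genes of the list in each of the 12 libraries, by group, with the group means. Mxd4 is lower in siNTC plus TVA (14.5 to 15.4 FPKM) than in siNTC (17.5 to 17.6 FPKM), and Gnl3 is higher in both siCreb1 groups (20.1 to 21.7 FPKM) than in both siNTC groups (16.4 to 18.3 FPKM).

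In siCreb1 cells TVA changed none of the 49 genes by limma's test. There were 0 calls by limma and 0 by limma-voom, where 0.537% of all tested genes passed (14 higher and 48 lower, or 64 and 93 by limma-voom). At an unadjusted p under 0.05 there were 3, against 9.58% of all tested genes, namely Npm3, Ltv1 and Nop16. Their log2 fold changes were −0.12 (adjusted p = 0.42), −0.13 (adjusted p = 0.332) and −0.14 (adjusted p = 0.465). Npm3 is a relative of nucleophosmin, Ltv1 helps to export and finish the small subunit, and Nop16 belongs to the large-subunit precursors. Small differences leaned downward, with 39 of the 49 genes below 0 (35 to 38 under the other scalings) and a median of −0.04, against −0.00 over all tested genes.

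The genes that passed with TVA in siNTC cells showed overlapping groups here. Mxd4 was 14.6, 15.4 and 15.6 FPKM in siCreb1 and 14.9, 16.5 and 15.8 FPKM in siCreb1 plus TVA (log2 fold change 0.05, adjusted p = 0.787). Dkc1 was 34.8, 35.6 and 35.9 FPKM in siCreb1 and 33.5, 37.1 and 34.1 FPKM in siCreb1 plus TVA (log2 fold change −0.02, adjusted p = 0.914). Noc2l was 53.9, 54.3 and 53.9 FPKM in siCreb1 and 53.7, 55.3 and 54.9 FPKM in siCreb1 plus TVA (log2 fold change 0.02, adjusted p = 0.896). In each of the 3 genes at least 1 TVA library lay inside or below the range without TVA.

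Myc was 99.3, 95.8 and 96.5 FPKM in siCreb1 and 98.6, 95.8 and 97.2 FPKM in siCreb1 plus TVA, nearly the same values (log2 fold change 0.00, adjusted p = 0.999). Max was 37.0, 36.6 and 35.1 FPKM in siCreb1 and 34.3, 35.4 and 35.2 FPKM in siCreb1 plus TVA, with overlap (log2 fold change −0.05, adjusted p = 0.764). For 48 of the 49 genes the 95% interval lay within a 1.2-fold change in either direction, the exception being Gar1, a small protein of the box H/ACA particles with a wide spread between libraries.

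**Figure D3:**
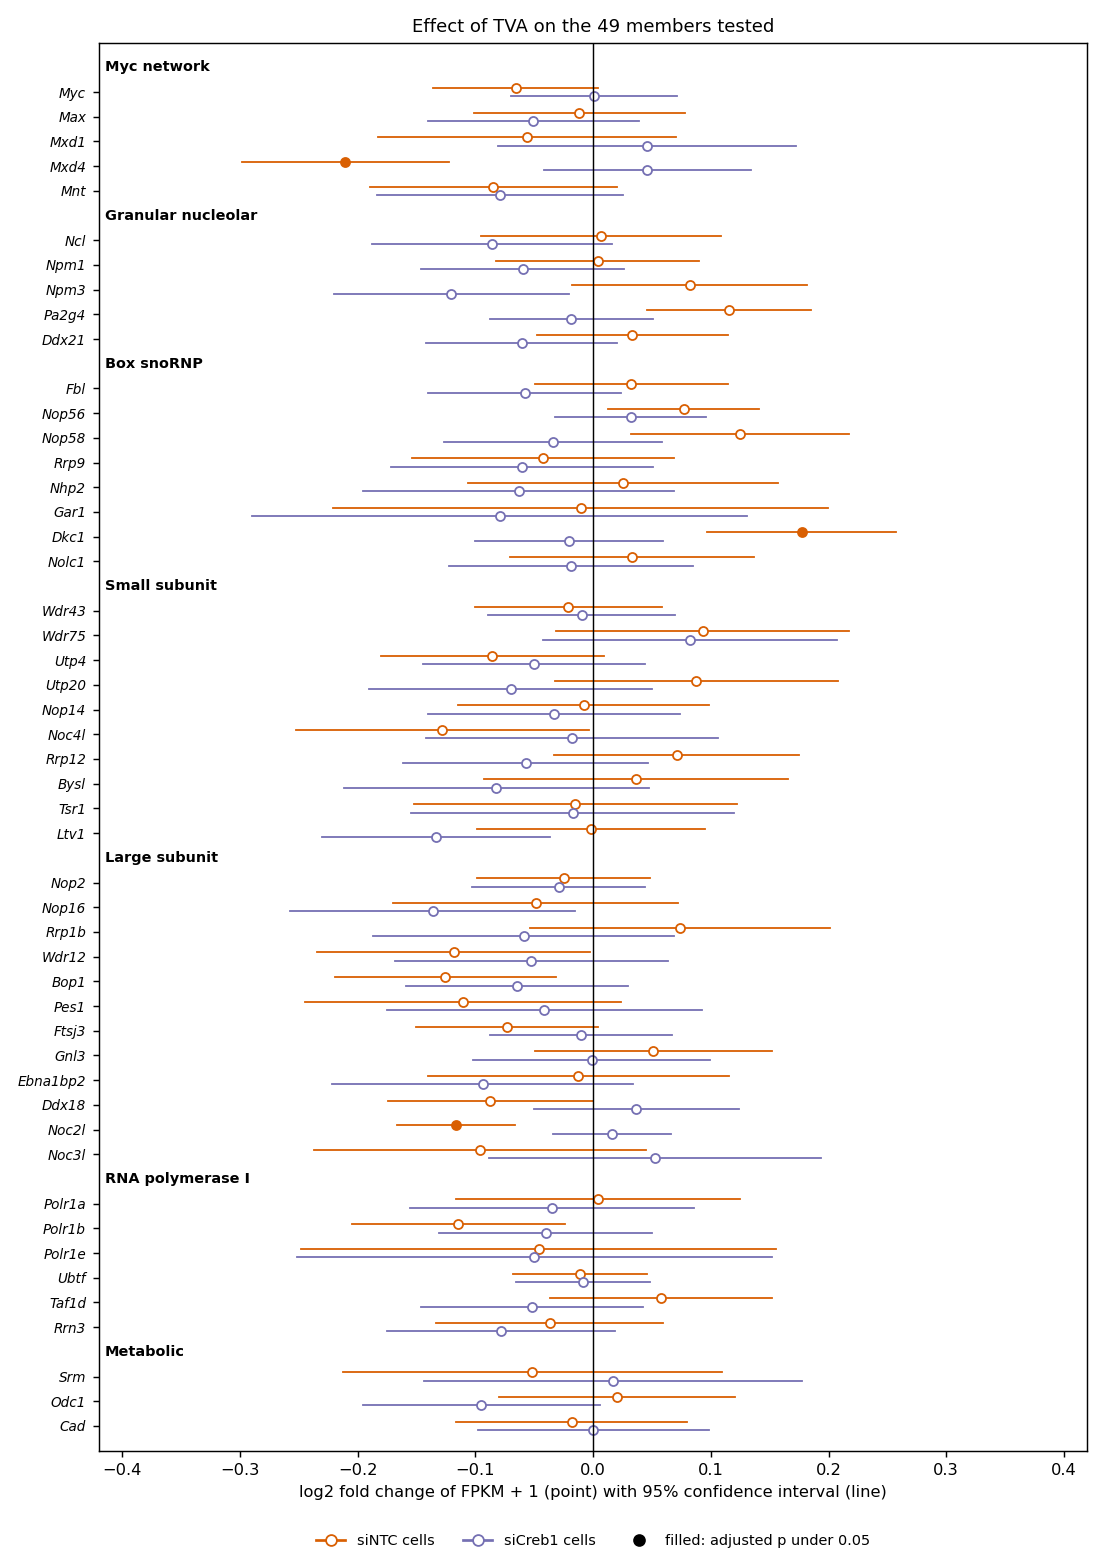
Log2 fold change with TVA for the 49 tested genes, in siNTC and in siCreb1 cells, with 95% intervals and filled points for an adjusted p under 0.05. Filled points are Dkc1 (0.18), Noc2l (−0.12) and Mxd4 (−0.21) in siNTC cells, and there are none in siCreb1 cells.

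Whether the response to TVA differed between siCreb1 and siNTC cells was tested directly by the interaction, the log2 fold change with TVA in siCreb1 cells minus that in siNTC cells. Mxd4 was the only 1 of the 49 genes to pass (2.04%), against 2.24% of all tested genes (53 or 0.459% higher and 206 or 1.78% lower). At an unadjusted p under 0.05 there were 7, against 14.3% of all tested genes, and limma-voom called 2, against 446 of all 11550. The difference for Mxd4 was 0.26 (SE 0.0563, 95% interval 0.13 to 0.38, adjusted p = 0.0441). Mxd4 fell with TVA in siNTC cells, and its siCreb1 libraries without TVA lay in the range of the siNTC libraries with TVA or just above. This call is weak. It was kept in 4 of 20 alternative settings, and among the fits that leave out 1 library in only 1 of 12, that without siCreb1 plus TVA replicate 1. Leaving out any of the other 11 libraries gave an adjusted p between 0.063 and 0.102, and all alternatives together 0.00475 to 0.111.

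Noc2l had a difference of 0.13 (adjusted p = 0.0653) and passed without siNTC replicate 3 (0.0413, with up to 0.233 under other alternatives). For Dkc1 it was −0.20 (adjusted p = 0.0836), with a call by limma-voom (0.0329) and without siCreb1 plus TVA replicate 2 (0.0192, with up to 0.203 elsewhere). The differences of Npm3 (−0.20, adjusted p = 0.155), Nop58 (−0.16, adjusted p = 0.232) and Pa2g4 (−0.13, adjusted p = 0.178) did not pass. All 5 nucleolar proteins and all 8 genes of the small nucleolar ribonucleoproteins had differences below 0, with medians of −0.09 and −0.08, and the same counts under the 3 other scalings. Over the whole list 31 genes were below 0 and 18 above, and over all tested genes 5693 of 11550 were below. The 12 large-subunit genes had a median of 0.06. Myc had a difference of 0.07 (adjusted p = 0.553). The interaction is measured less finely than its 2 parts, with a median SE of 0.0641 against 0.0454, and the interval was within a 1.2-fold change for 33 of the 49 genes.

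With knockdown of Creb1 in cells without TVA, the share of the list that passed was close to that of all tested genes. Gnl3, Nop56, Nop58, Dkc1, Pa2g4 and Polr1b were higher in siCreb1 than in siNTC cells and Mxd4 was lower, while Myc was not called. These 7 of 49 genes (14.3%) stand beside 13.7% of all tested genes (753 or 6.52% higher and 833 or 7.21% lower, 908 and 297 after rescaling to TPM, and 1178 and 805 by limma-voom). At an unadjusted p under 0.05 there were 16, against 28.1% of all tested genes. The median log2 fold change of the list was 0.04, against −0.00 over all tested genes, and 35 of the 49 genes were above 0 (37 to 39 under the other scalings). Of the 7 calls, those on Gnl3, Nop56 and Mxd4 held whichever library was left out, and the other 4 did not; the count over those 12 fits ran from 3 (without siCreb1 replicate 1 or 2) to 8 (without siNTC replicate 1). It was 4 without siNTC replicate 2 or 3, siNTC plus TVA replicate 1 or 2, siCreb1 replicate 3 or siCreb1 plus TVA replicate 3, and 2 in a fit of only the 6 libraries compared. Of all 11550 tested genes 1020 to 1532 were called over the 12 fits, and 817 in that of the 6 libraries. This comparison and that of TVA in siNTC cells share the siNTC libraries. Depth did not overlap between siCreb1 and siNTC, and the summed CD8 markers did not either, and the part of either in the calls was not tested.

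Some of these fits added a gene. Ncl was called higher without siNTC replicate 1 (adjusted p = 0.0217, from 0.345 with all libraries and up to 0.774 under other alternatives). Taf1d was called higher without siNTC replicate 3 (0.018), Utp20 without siNTC plus TVA replicate 1 (0.0494) and Ltv1 without siNTC plus TVA replicate 3 (0.0491). Mxd1 was called lower without siNTC replicate 2 (0.0314) and Bop1 without siCreb1 replicate 3 (0.0474). Over all alternatives these 5 ranged from 0.00914 to 0.183, 0.0118 to 0.193, 0.0248 to 0.253, 0.0314 to 0.265 and 0.0474 to 0.417 in that order.

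Myc was 93.7, 102 and 96.4 FPKM in siNTC and 99.3, 95.8 and 96.5 FPKM in siCreb1, with means of 97.3 ± 4.06 and 97.2 ± 1.86 FPKM (SD, n = 3). The values interleave, and the log2 fold change was −0.00 (adjusted p = 0.99). Mxd4 was 17.6, 17.5 and 17.6 FPKM in siNTC and 14.6, 15.4 and 15.6 FPKM in siCreb1. All 3 knockdown libraries were lower, by −13.6% in the mean (log2 fold change −0.20, adjusted p = 0.00918), with an adjusted p of 0.0654 after rescaling to TPM and 0.0014 at the lowest. Of the other repressors, Mxd1 had a log2 fold change of −0.17 (adjusted p = 0.0836), and Mnt of 0.06 (adjusted p = 0.478).

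Gnl3 (ENSMUSG00000042354, chr14:31012433-31019152), a nucleolar GTP-binding protein of proliferating cells, was 16.4, 16.7 and 18.1 FPKM in siNTC and 20.6, 21.7 and 20.1 FPKM in siCreb1. The groups are well apart, and the mean was 22.1% higher (log2 fold change 0.27, adjusted p = 0.0036), the largest value of the list here. Nop56 was 42.2, 40.7 and 41.8 FPKM in siNTC and 45.6, 48.2 and 44.5 FPKM in siCreb1. It was higher in every knockdown library, with a mean 11.0% above (log2 fold change 0.15, adjusted p = 0.00877), and an adjusted p of 0.0655 in a fit of only the 6 libraries compared and 0.000821 at the lowest.

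The other 4 calls lie close to the threshold. Nop58 was 12.9, 12.4 and 12.3 FPKM in siNTC and 14.4, 14.1 and 13.6 FPKM in siCreb1 (log2 fold change 0.15, adjusted p = 0.0402). Dkc1 was 33.3, 31.9 and 31.9 FPKM in siNTC and 34.8, 35.6 and 35.9 FPKM in siCreb1 (log2 fold change 0.13, adjusted p = 0.0438). For both genes all knockdown libraries were above all control libraries. Pa2g4 was 79.5, 75.5 and 76.4 FPKM in siNTC and 85.0, 81.2 and 83.2 FPKM in siCreb1 (log2 fold change 0.11, adjusted p = 0.0461). Polr1b was 7.78, 7.25 and 7.18 FPKM in siNTC and 8.11, 8.05 and 8.60 FPKM in siCreb1 (log2 fold change 0.14, adjusted p = 0.0473). These groups do not overlap either. Nop58 was no longer called in 7 of the 12 fits that left out 1 library, with an adjusted p between 0.0532 and 0.127 (siNTC replicates 2 and 3, siNTC plus TVA replicate 1, all siCreb1 replicates and siCreb1 plus TVA replicate 3). For Dkc1 it was 9 of 12, between 0.0545 and 0.122 (siNTC replicates 2 and 3, all siNTC plus TVA and all siCreb1 replicates and siCreb1 plus TVA replicate 3). For Pa2g4 it was 9 of 12, between 0.0516 and 0.147 (siNTC replicates 2 and 3, siNTC plus TVA replicates 1 and 2, all siCreb1 replicates and siCreb1 plus TVA replicates 1 and 2), and for Polr1b 11 of 12, between 0.0557 and 0.152 (every library but siNTC replicate 1).

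By role, 3 of the 8 genes of the small nucleolar ribonucleoproteins were called higher, 1 of the 5 nucleolar proteins, 1 of the 12 large-subunit genes and 1 of the 6 polymerase I genes, against 6.52% of all tested genes. Of the 3 in the first group only Nop56 held whichever library was left out. The 10 small-subunit factors gave 0 calls by limma, with 2 at an unadjusted p under 0.05 and 1 call by limma-voom, and their median was 0.02. Wdr43 was 41.5, 45.3 and 43.0 FPKM in siNTC and 43.4, 43.2 and 42.9 FPKM in siCreb1, inside the control range (log2 fold change −0.00, adjusted p = 0.987). The 3 metabolic enzymes also gave 0 calls by limma, with 1 at an unadjusted p under 0.05 and 1 by limma-voom. Srm was 32.4, 39.2 and 34.5 FPKM in siNTC and 35.2, 37.4 and 33.7 FPKM in siCreb1, likewise within the control range (log2 fold change 0.01, adjusted p = 0.977). Just short of a call were Taf1d, a subunit of the polymerase I selectivity factor (0.13, adjusted p = 0.0629), the small-subunit factor Utp20 (0.17, adjusted p = 0.0676) and the helicase Ddx18 (−0.12, adjusted p = 0.0727). The interval lay within a 1.2-fold change for 44 of the 49 genes.

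Some genes of the list also host other genes. The spans of 9 of the 50 genes hold genes of small nucleolar RNAs on the same strand, 30 in all: Taf1d 8, Nop56 5, Nop58 4, Ncl, Wdr43 and Gnl3 3 each, Tsr1 2, and Dkc1 and Odc1 1 each. Whether they lie in introns was not checked. Of these 9, 4 were called higher in siCreb1 without TVA and 8 were above 0, with a median of 0.13, against 2 higher and 1 lower of the other 40, with a median of 0.04 (6.52% of all tested genes were higher). Of the 4, only Nop56 and Gnl3 were still called without siNTC replicate 2 or 3, siNTC plus TVA replicate 1, siCreb1 replicate 1, 2 or 3 or siCreb1 plus TVA replicate 3. With TVA the knockdown left 1 of the 9 called, 5 above 0 and a median of 0.01, against 3 called of the other 40 and −0.01 (4.64% of all tested genes were higher). The medians of the 9 and the 40 were 0.05 and −0.02 for TVA in siNTC cells, −0.02 and −0.05 for TVA in siCreb1 cells, and −0.09 and −0.01 in the interaction. No test compared the 2 sets. Nop56, Dkc1, Gnl3 and Noc2l each overlap a protein-coding gene on the opposite strand (Idh3b, Mpp1, Pbrm1 and Samd11), and whether the counting used strand is not given in the sources used here, so reads of such partners cannot be told apart.

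In cells given TVA the knockdown left 4 genes higher and none lower. They were Gnl3, Noc2l, Polr1b and Ftsj3. These 4 of 49 (8.16%) stand beside 10.1% of all tested genes (536 or 4.64% higher and 636 or 5.51% lower, 595 and 335 after quantile normalization, 620 and 120 after rescaling to TPM, and 909 and 623 by limma-voom). At an unadjusted p under 0.05 there were 9, against 26.2% of all tested genes. The median of the list was −0.00 against −0.01 over all tested genes, with 23 genes above 0 and 26 below, and the 3 other scalings turned the balance to between 28 and 37 above. Without siCreb1 plus TVA replicate 1 the count was 2, Noc2l and Polr1b, against 599 of all 11550 tested genes. Npm3 was called lower without siNTC replicate 1 (log2 fold change −0.13, adjusted p = 0.0336, from 0.088 with all libraries and up to 0.402 under other alternatives).

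Noc2l was 48.8, 47.8 and 48.4 FPKM in siNTC plus TVA and 53.7, 55.3 and 54.9 FPKM in siCreb1 plus TVA. The groups are far apart for their spread, and the mean was 13.1% higher (log2 fold change 0.17, adjusted p = 0.00195); without TVA the log2 fold change was 0.04 (adjusted p = 0.255), and after quantile normalization it was 0.09 and passed (0.0325, with up to 0.557 under other alternatives). Polr1b was 6.67, 6.96 and 6.66 FPKM in siNTC plus TVA and 7.76, 8.09 and 8.13 FPKM in siCreb1 plus TVA. It was higher in all 3 knockdown libraries, by 18.3% in the mean (log2 fold change 0.21, adjusted p = 0.0105). Both calls held under all 21 alternative settings.

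Gnl3 was 16.7, 18.3 and 18.1 FPKM in siNTC plus TVA and 21.04, 20.84 and 20.47 FPKM in siCreb1 plus TVA. There is no overlap, as without TVA, and the mean was 17.5% higher (log2 fold change 0.22, adjusted p = 0.0142, with a range of 0.00034 to 0.0516 under the alternatives, the highest without siCreb1 plus TVA replicate 1). Ftsj3 (ENSMUSG00000020706, chr11:106249142-106256079), a methyltransferase of ribosome precursors, was 24.2, 22.6 and 24.3 FPKM in siNTC plus TVA and 26.6, 25.4 and 26.5 FPKM in siCreb1 plus TVA. Its groups do not overlap and the mean was 10.3% higher (log2 fold change 0.14, adjusted p = 0.0334). The adjusted p was 0.0503 without siNTC plus TVA replicate 1, 0.101 without siNTC plus TVA replicate 2, 0.104 without siCreb1 plus TVA replicate 1 and 0.0956 without siCreb1 plus TVA replicate 3, and 0.00905 at the lowest. It was also 0.0574 after rescaling to TPM and 0.0686 with all genes above 0. Without limma's mean-variance trend it was 0.0543, and with only the libraries compared 0.0838. The call was kept in 13 of 21 alternative settings. In the groups without TVA, Ftsj3 was 25.3, 24.2 and 25.5 FPKM in siNTC and 25.9, 26.4 and 26.7 FPKM in siCreb1 (log2 fold change 0.07, adjusted p = 0.193).

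Nop56 was 44.2, 43.7 and 43.7 FPKM in siNTC plus TVA and 47.7, 46.6 and 47.1 FPKM in siCreb1 plus TVA. All knockdown libraries were above, but the log2 fold change of 0.10 had an adjusted p of 0.0516; it passed in 6 alternative settings, among them without siCreb1 replicate 2 (0.025) and without siCreb1 replicate 3 (0.0428), over a range of 0.0128 to 0.145. Pa2g4 was 81.9, 82.5 and 86.4 FPKM in siNTC plus TVA and 82.4, 84.1 and 79.7 FPKM in siCreb1 plus TVA, with overlap. Nop58 was 13.89, 14.44 and 13.03 FPKM against 13.1, 14.1 and 13.8 FPKM, and Dkc1 37.4, 36.2 and 36.6 FPKM against 33.5, 37.1 and 34.1 FPKM, both overlapping as well. None of these 3 passed, with log2 fold changes of −0.03, −0.01 and −0.07.

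Myc was 95.7, 91.6 and 91.3 FPKM in siNTC plus TVA and 98.6, 95.8 and 97.2 FPKM in siCreb1 plus TVA. The knockdown libraries were the higher ones by a narrow margin without overlap (log2 fold change 0.07, adjusted p = 0.221), and quantile normalization gave 0.16 with an adjusted p of 0.00845, with up to 0.418 under other alternatives. Max was 37.8, 37.5 and 36.2 FPKM in siNTC plus TVA and 34.3, 35.4 and 35.2 FPKM in siCreb1 plus TVA, lower without overlap but short of the test (log2 fold change −0.09, adjusted p = 0.204). Mxd4 was 15.4, 14.5 and 15.3 FPKM in siNTC plus TVA against 14.9, 16.5 and 15.8 FPKM in siCreb1 plus TVA, with overlap (log2 fold change 0.06, adjusted p = 0.392). The myeloid marker Lyz2 was higher in the same comparison (log2 fold change 0.40, adjusted p = 0.0478) and neither depth nor the summed CD8 markers overlapped here, and the part of each in the calls was not tested.

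**Figure D4:**
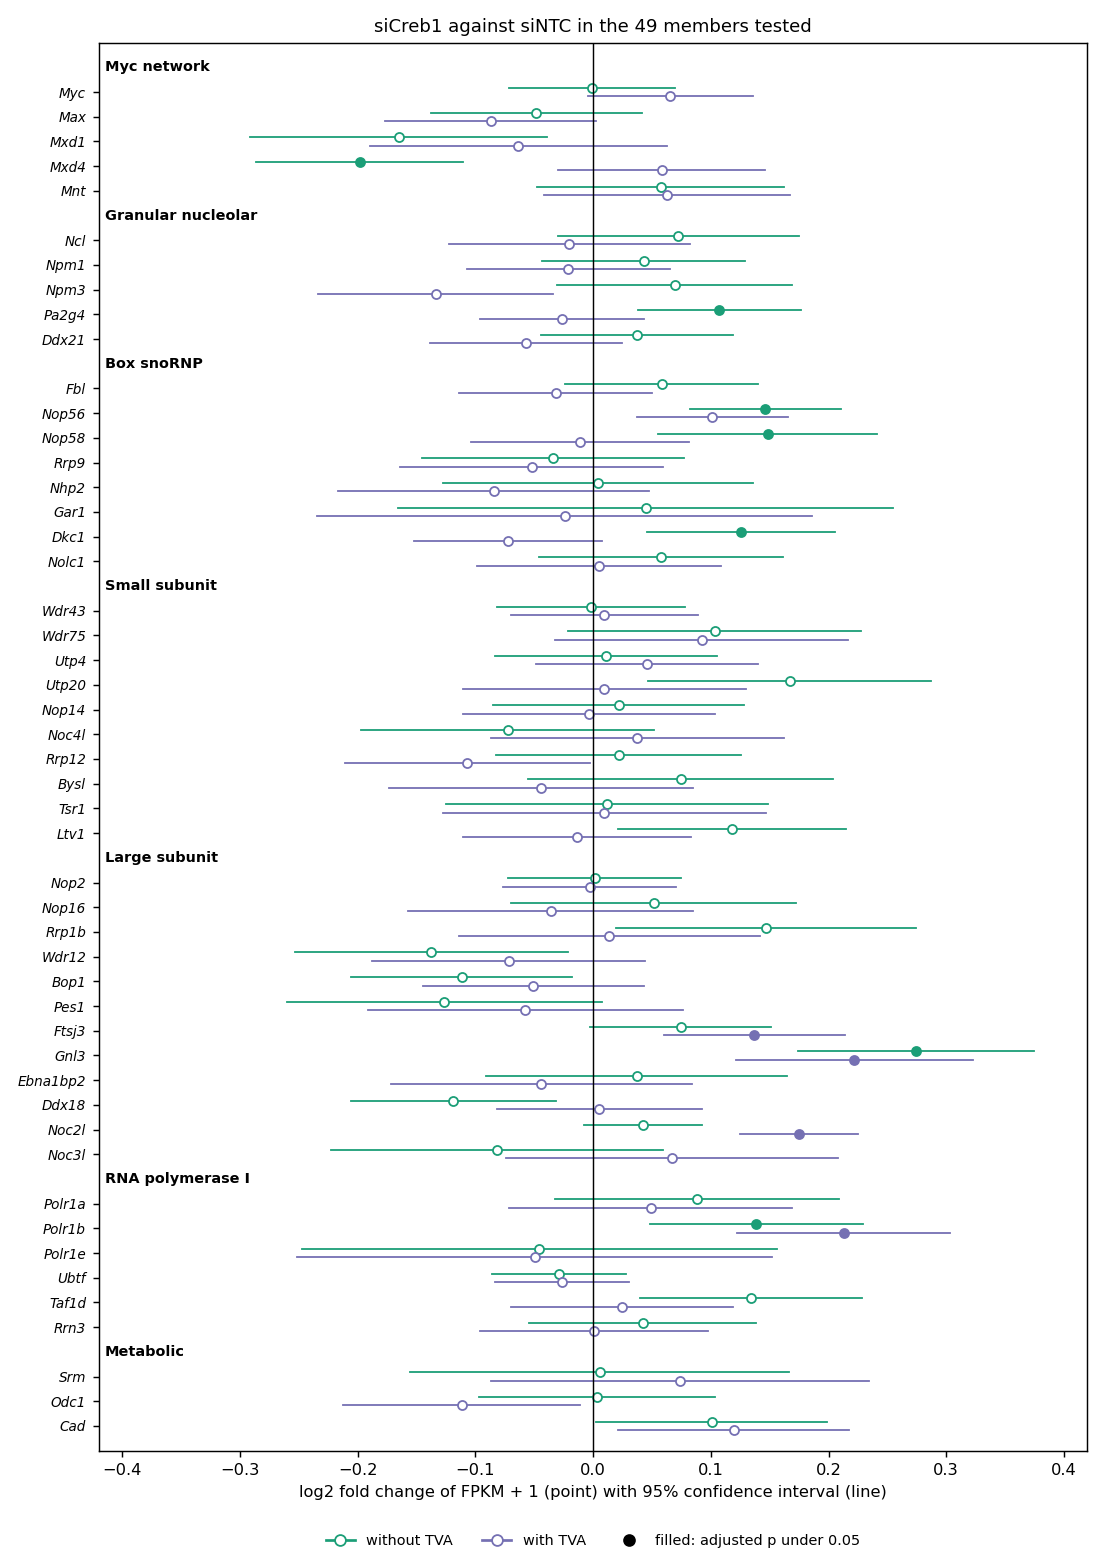
Log2 fold change with knockdown of Creb1 for the 49 tested genes, without and with TVA, with 95% intervals and filled points for an adjusted p under 0.05. Gnl3 (0.27 and 0.22) and Polr1b (0.14 and 0.21) are filled on both sides, and Mxd4 (−0.20) is the only filled point below 0.

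Over the 5 comparisons 9 of the 49 genes were called at least once (Dkc1, Ftsj3, Gnl3, Mxd4, Noc2l, Nop56, Nop58, Pa2g4 and Polr1b), and 40 in none. Over all tested genes 21.4% were called at least once.

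A wider list of 126 other genes of the Myc network and ribosome biogenesis, 122 of them tested, was read the same way. With TVA in siNTC cells 2 were higher and 4 lower (4.92%, against 7.38% of all tested genes), and in siCreb1 without TVA 7 and 6 (10.7%, against 13.7%). In siCreb1 with TVA it was 5 and 4 (7.38%, against 10.1%), and in the interaction 0 and 1 (0.82%, against 2.24%). With TVA in siCreb1 cells there were 0 calls by limma, against 0.537% of all tested genes. At an unadjusted p under 0.05 there were 8, against 9.58%, and limma-voom called 1, against 157 of 11550. Mycn, Mycl, Mlxipl and Npm2 were too low to be tested. The median log2 fold change was −0.01 in each of the 5 comparisons, and rescaling to TPM turned those of the 2 knockdown comparisons to 0.03 and 0.04. It moved the medians of all tested genes there too, from −0.00111 and −0.0122 to 0.0434 and 0.037.

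Mxd3, a further repressor that pairs with Max and is known from dividing cells, had the largest log2 fold changes of the wider list with TVA in siNTC cells, in siCreb1 without TVA and in the interaction. It was 10.3, 9.90 and 10.8 FPKM in siNTC and 15.6, 14.7 and 15.9 FPKM in siNTC plus TVA. In siCreb1 it was 12.3, 12.2 and 13.8 FPKM and in siCreb1 plus TVA 12.9, 13.1 and 12.4 FPKM. The siNTC libraries were the lowest, the siNTC plus TVA libraries the highest, and both siCreb1 groups lay between without touching either. It rose with TVA in siNTC cells (log2 fold change 0.53, adjusted p = 9.67e-05) and with knockdown without TVA (0.28, adjusted p = 0.00495). With TVA it was lower in siCreb1 (−0.25, adjusted p = 0.0124, and 0.00836 to 0.0773 under the alternatives, the highest after rescaling to TPM), and the interaction was −0.53 (adjusted p = 0.00369). The log2 fold changes of Mxd4, its relative in the list, were −0.21, −0.20, 0.06 and 0.26 in the same order.

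Of the other genes named here, chosen as the 3 largest rises and falls that passed in each comparison, Nop53, a large-subunit factor, was lower with TVA in siNTC cells (−0.17, adjusted p = 0.00467) and in siCreb1 without TVA (−0.22, adjusted p = 0.00103). Its mean also changed by −8.02% with TVA in siCreb1 cells. Limma gave no call there, and limma-voom did (−0.11, adjusted p = 0.018). With TVA in siNTC cells Gnl3l, a relative of Gnl3, was higher (0.16, adjusted p = 0.0409), and Zfp622 (−0.17, adjusted p = 0.0357) and Rrp36 (−0.16, adjusted p = 0.0411) were lower. These 3 calls are weak, each kept in 4 of the 12 fits that left out 1 library, with an adjusted p of up to 0.124, 0.116 and 0.132 in the others. The fits that kept them were without siNTC replicate 1, siNTC plus TVA replicate 3, siCreb1 replicate 3 or siCreb1 plus TVA replicate 2 for Gnl3l, and without siNTC replicate 3, siCreb1 replicate 2 or 3 or siCreb1 plus TVA replicate 3 for Zfp622. For Rrp36 they were without siNTC replicate 1, siCreb1 replicate 1 or 3 or siCreb1 plus TVA replicate 3.

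In siCreb1 without TVA Nat10, an RNA acetyltransferase (0.21, adjusted p = 0.0119), and Mdn1, a large ATPase that strips assembly factors from the large subunit (0.19, adjusted p = 0.00306), were higher under all 21 alternatives. Imp3 (−0.19, adjusted p = 0.032) and Rrp36 (−0.18, adjusted p = 0.013), both small-subunit factors, were lower. The adjusted p of Imp3 was 0.0992 without siNTC replicate 2, 0.0729 without siNTC replicate 3, 0.0592 without siCreb1 replicate 2, 0.109 without siCreb1 replicate 3 and up to 0.177 after rescaling to TPM, and that of Rrp36 0.0503 without siCreb1 replicate 3 and up to 0.0881 after rescaling to TPM. Mlxip was higher there too (0.14, adjusted p = 0.0204), with 0.0668 and 0.0534 without siNTC replicates 2 and 3 and 0.0564, 0.0554 and 0.0602 without siCreb1 replicates 1, 2 and 3. Zfp622 was lower there too (−0.18, adjusted p = 0.0189), with 0.0563 and 0.0629 without siNTC replicates 1 and 2, 0.0609 and 0.0678 without siCreb1 replicates 1 and 2, and up to 0.0941 after rescaling to TPM.

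In siCreb1 with TVA Mdn1 (0.19, adjusted p = 0.0047), Ppan (0.19, adjusted p = 0.023) and Mlxip, which belongs to the wider Myc network (0.18, adjusted p = 0.00965), were higher. Nop10, the small partner of Dkc1 in the box H/ACA particles, was lower (−0.27, adjusted p = 0.0136, and 0.054 without siCreb1 plus TVA replicate 2), and Imp3 was lower as well (−0.24, adjusted p = 0.0168). The adjusted p of Ppan was 0.0627 without siNTC plus TVA replicate 3, 0.0771 and 0.0701 without siCreb1 plus TVA replicates 2 and 3. That of Imp3 was 0.055 and 0.0509 without siNTC plus TVA replicates 1 and 3, 0.0643 without siCreb1 plus TVA replicate 2 and up to 0.104 after rescaling to TPM. Nop53 (−0.17, adjusted p = 0.00584) and Nat10 (0.16, adjusted p = 0.0412) were called there too, with up to 0.0733 after rescaling to TPM for Nop53. Nat10 was kept in 4 of the 12 fits that left out 1 library (without siNTC replicate 1 or 2, siNTC plus TVA replicate 1 or siCreb1 plus TVA replicate 3), with up to 0.131 in the others.

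Genes of cell division moved with the groups on a larger scale. Of 16 genes of DNA replication and mitosis, all 16 were higher with TVA in siNTC cells (median log2 fold change 0.46, against 4.49% of all tested genes higher) and all 16 higher in siCreb1 without TVA (median 0.27, against 6.52%). With TVA in siCreb1 cells 0 were called by limma, against 0.537% of all tested genes, and 1 by limma-voom, against 157 of 11550. At an unadjusted p under 0.05 there were 6, against 9.58% of all tested genes. Above 0 were 11, against 5685 of all 11550, and the median was 0.05. With TVA, 10 of 16 were lower in siCreb1 (median −0.14, against 5.51%; 5 after quantile normalization and 2 after rescaling to TPM). The interaction was below 0 and called for all 16 (median −0.40, against 1.78%; 15 and 12 called under the same scalings). Mki67, the proliferation marker Ki-67, had log2 fold changes of 0.56 (adjusted p = 1.83e-06) with TVA in siNTC cells and 0.43 (adjusted p = 2.37e-05) in siCreb1 without TVA. In the list of 50 the medians of the 5 comparisons, in the order of this paragraph, were −0.01, 0.04, −0.04, −0.00 and −0.04. The part of cell division in the calls on Mxd4, Dkc1 and the other list genes was not tested.

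Ribosomal proteins are components of the subunits that the assembly factors build. Of their cytosolic genes 81 were listed and 77 tested. None was called higher by limma. With TVA in siNTC cells 8 were lower (10.4%, against 2.88% of all tested genes), in siCreb1 without TVA 14 (18.2%, against 7.21%) and in siCreb1 with TVA 22 (28.6%, against 5.51%), with medians of −0.05, −0.05 and −0.09. With TVA in siCreb1 cells 0 were called by limma, against 0.537% of all tested genes, and 12 lower by limma-voom, against 93 of 11550. At an unadjusted p under 0.05 there were 41, against 9.58% of all tested genes. Below 0 were 70 of 77, against 5864 of all 11550, and the median was −0.08 (−0.03 after quantile normalization). In the interaction 0 were called, against 2.24% of all tested genes. At an unadjusted p under 0.05 there were 8, against 14.3%, and limma-voom called 3, against 446 of 11550. The counts depend on scaling. In the first 3 comparisons named, quantile normalization left 1, 3 and 2 lower, with medians of 0.00, 0.02 and −0.01, and rescaling to TPM left 1, 3 and 2. Over all tested genes 295, 637 and 335 were lower after quantile normalization, and 154, 297 and 120 after rescaling to TPM. Many ribosomal protein genes have near-identical pseudogenes, so their levels are uncertain.

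**Figure D5:**
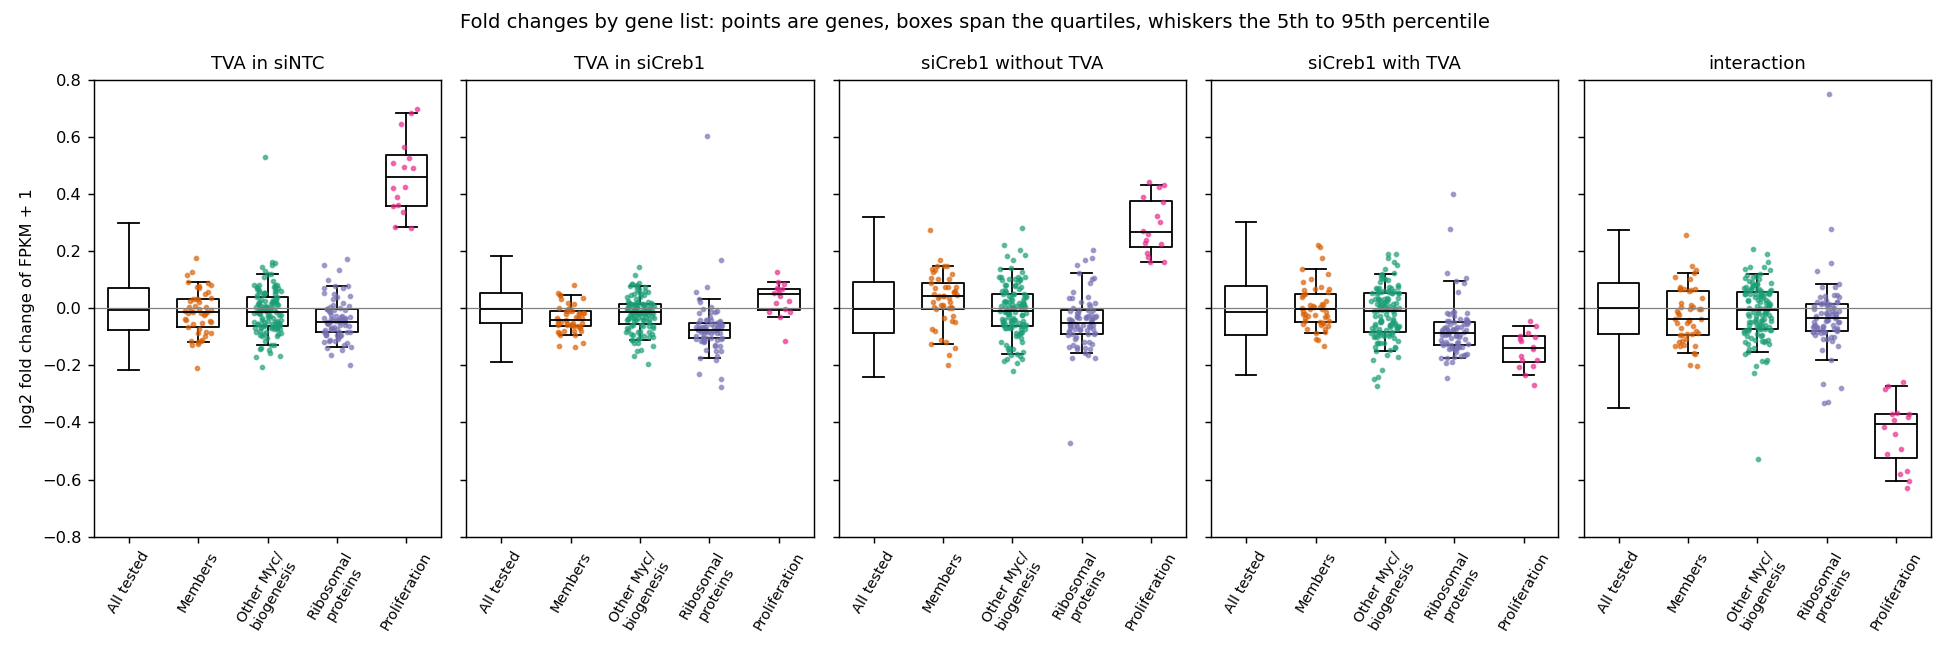
Log2 fold changes in the 5 comparisons for all tested genes, the 49 genes of the list, the other 122 pathway genes, 77 ribosomal protein genes and 16 proliferation genes. The list stays near 0 (medians −0.04 to 0.04) while the proliferation genes reach medians of 0.46 and −0.40.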

How the data were processed

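FPKM values per gene were deposited by the authors, 1 file for each of 12 libraries made with a SMARTER mRNA kit. The submitters' processing notes name the builds GRCm38 and mm10; the aligner, the counting program and its use of strand are not given in the sources used here. Genes with a mean of at least 1 FPKM were tested on log2(FPKM + 1), pseudocount 1, in R 4.3.3 with limma 3.58.1 (lmFit, contrasts.fit and eBayes with a mean-variance trend), in 1 fit with a mean for each of 4 groups. P-values were adjusted by Benjamini-Hochberg over all 11550 tested genes, with a threshold of 0.05. A fold change on this scale understates that of low genes.

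FPKM times gene length fell on whole multiples of 1 read for at least 99.9936% of values (tolerance 0.05), which gave 16660234 to 24602484 reads per library. Squared differences between replicates were 3.54 to 5.29 times the variance of counting over 12 pairs, so no library was the same one sequenced again; separate preparations of 1 RNA or culture cannot be told apart from separate cultures this way. Intervals are 95% intervals of limma.

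Values in every library are given for Myc, Max, each list gene called in any comparison and the most abundant gene of a role without one; other pathway genes that passed are named by size of change, at most 3 in each direction of each comparison, with further calls on the same genes. The genes and lists were chosen with earlier results of these data known. Alternatives were a pseudocount of 0.1, the 29700 genes above 0, the 7480 genes with a mean of at least 5 FPKM, quantile normalization, TPM, no trend, limma-voom on the recovered reads, only the libraries compared, the replicate number as a block, and leaving out each library. Tables were made with Python 3.11.15, pandas 2.3.3 and scipy 1.17.1, and figures with matplotlib 3.10.9.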

Additional observations from a re-analysis of the deposited data

Results flagged for a closer look

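The response to TVA of Mxd4, Mxd3, Mki67 and Pcna differed between siCreb1 and siNTC cells by the test of the interaction, as it did for 259 of all 11550 tested genes. Taking the log2 fold change with TVA after knockdown and subtracting the one under siNTC gave 0.26 for Mxd4 (adjusted p = 0.0441), −0.53 for Mxd3 (adjusted p = 0.00369), −0.49 for Mki67 (adjusted p = 0.00026) and −0.38 for Pcna, the sliding clamp of DNA replication (adjusted p = 9.21e-05). The calls on Mxd3, Mki67 and Pcna held under all 20 alternative settings. That on Mxd4 held under 4 of 20, with an adjusted p of up to 0.111.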

How the results depend on the processing

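No call on a list gene or on another gene followed over the alternatives reversed its direction. The number of list genes called in siCreb1 without TVA was 7, and it was 3 with all genes above 0, 4 without the trend, 11 by limma-voom, 2 with only the libraries compared and 4 with the replicate block. Of all tested genes 1586 of 11550 were called there. In the same order of settings it was 992 of 29700, then 1470, 1983, 817 and 1385 of 11550. The interaction had 1 call, 0 with all genes above 0, quantile normalization, TPM, no trend or the replicate block, and 2 by limma-voom. Over all tested genes it had 259 of 11550. In the same order of settings it was 174 of 29700, then 243, 152, 206, 195 and 446 of 11550. Leaving out 1 library gave 3 to 8 calls in siCreb1 without TVA, 2 to 5 with TVA and 0 to 1 in the interaction. Over all tested genes the same fits gave 1020 to 1532, 599 to 1245 and 168 to 237. For TVA in siNTC cells leaving out 1 library gave 2 to 4, against 558 to 767 of all tested genes. For TVA in siCreb1 cells every setting gave 0, against 30 to 157 of all tested genes.

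The median of the list moved with scaling. For TVA in siNTC cells (−0.012) limma-voom gave 0.00193, and for TVA in siCreb1 cells (−0.0416) it gave −0.0328. In siCreb1 without TVA (0.0422) it was 0.0613 after quantile normalization, 0.0899 after TPM and 0.0625 by limma-voom, and with TVA (−0.00337) 0.0157, 0.0486 and 0.0146 in that order. TPM also moved the median of all genes, to 0.0434 and 0.037. The interaction (−0.0387) was −0.0289 after quantile normalization. Leaving out 1 library gave −0.0272 to 0.00313, −0.0462 to −0.0332, 0.0315 to 0.0438, −0.0205 to 0.00329 and −0.0468 to −0.0156 in the 5 comparisons. The cause of these shifts was not tested.

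Same-numbered libraries did not deviate together (correlations of −0.0593 to 0.0595 over 18 pairs). This cannot show whether they share an animal or culture, which the labels do not say. With the replicate block the calls on Mxd4 in the interaction (adjusted p = 0.0795) and on Pa2g4 (0.0766), Dkc1 (0.0766) and Polr1b (0.087) in siCreb1 without TVA were lost, and no other call on a list gene changed. The median SE of 0.0454 leaves differences of a few percent undetected, and larger ones can miss a call too. In siCreb1 without TVA the mean of Utp20 was 14.4% higher and limma did not call it (adjusted p = 0.0676). That of Mxd1 changed by −13.6%, also without a call by limma (adjusted p = 0.0836). How far depth and spread between libraries each set the SE was not tested for the list genes.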
